A study of Mus musculus with 6 samples.

Results

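The miRNAs described here are those best known from inflammation and from low oxygen, measured in cultured smooth muscle cells of mouse kidney arterioles with and without forskolin. The group was a named list of 8 probes, found by exact probe name: mmu-miR-21, mmu-miR-21*, mmu-miR-31, mmu-miR-31*, mmu-miR-146a, mmu-miR-146b, mmu-miR-155 and mmu-miR-210. The prefix for mouse is left out from here on. All 8 were on the array, out of 599 mouse miRNA probes, and all 8 were also in the deposited series table. The cells were arteriolar smooth muscle cells (aSMCs) of a primary line descended from the renin lineage, on a mixed 129Sv/C57Bl6 background at passage 7. The 3 forskolin cultures received 10 µM forskolin, which activates adenylyl cyclase, and 100 µM IBMX, which blocks the breakdown of cyclic AMP, for 24 h, and a further 10 µM forskolin in the last 30 min. The 3 control cultures had no treatment, and no vehicle is named. The design text describes separate growth and harvest of each culture, and the labels name no separate animals.

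miRNAs are short RNAs that guide Argonaute proteins to matching sites in messenger RNAs, mainly through the seed, bases 2 to 8. miR-21 is abundant in many cultured and injured cells and is known for repressing Pdcd4. miR-146a and miR-146b are induced by NF-κB and repress Irak1 and Traf6, which closes a feedback loop on Toll-like receptor signalling. miR-155 is made from the Mir155hg transcript, is induced in activated macrophages and lymphocytes, and represses Socs1. In human cells it also represses the angiotensin II receptor AGTR1. miR-31 has been studied in smooth muscle growth in rat. miR-210 is the best known target of HIF-1 among miRNAs and represses the iron-sulfur scaffold Iscu.

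The 8 mature sequences are shown because the array reads each of them with its own probe, and because they show which members share a seed. The target of each of the 8 probes was identical over its whole length to 1 mature miRNA of RefSeq (build GRCm38.p6). Capitals mark the seed, bases 2 to 8 from the 5′ end.
miR-21: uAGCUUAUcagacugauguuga
miR-21*: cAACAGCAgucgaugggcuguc
miR-31: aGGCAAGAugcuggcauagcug
miR-31*: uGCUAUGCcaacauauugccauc
miR-146a: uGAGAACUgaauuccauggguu
miR-146b: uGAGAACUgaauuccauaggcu
miR-155: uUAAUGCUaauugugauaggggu
miR-210: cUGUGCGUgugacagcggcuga

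Only miR-146a and miR-146b shared a seed within the group. Their 22 bases differed at 2 positions, G18A and U21C, with positions counted from the 5′ end and the base of miR-146a first. Probes so alike can hybridise with each other's target, so the signals of miR-146a and miR-146b may not be independent. Of the other 591 probes, only miR-590-5p had the seed of a member, that of miR-21. It was detected in 1 of 3 forskolin samples and in 0 of 3 controls, so it added little to the seed family of miR-21 as read here.

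In GRCm38.p6, miR-21 lies at chr11:86584120-86584141 on the minus strand, within the span of the protein-coding gene Vmp1. miR-31 lies at chr4:88910614-88910635 on the minus strand, within the lncRNA Gm49890. miR-155 lies at chr16:84714143-84714165 on the plus strand, within the lncRNA Mir155hg. miR-146a lies at chr11:43374435-43374456 (minus strand) and miR-210 at chr7:141221407-141221428 (minus strand), and the RefSeq gene table listed no other gene over either hairpin. miR-146b lies at chr19:46342790-46342811 on the plus strand, within the lncRNA Gm36493. Each star strand comes from the same hairpin as its partner. The hairpins of miR-21 and miR-31 are shown because both of their strands were on the array, with the strands in capitals, the guide first.
Mir21a: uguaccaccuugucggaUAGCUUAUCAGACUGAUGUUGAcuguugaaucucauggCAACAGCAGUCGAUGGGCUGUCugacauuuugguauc
Mir31: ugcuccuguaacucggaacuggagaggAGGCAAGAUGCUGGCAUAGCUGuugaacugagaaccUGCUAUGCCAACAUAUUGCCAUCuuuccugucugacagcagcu

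Each probe was spotted 5 times on an array, and each sample was read in 1 dye. Forskolin samples 1 and 3 and control 2 were in Cy5, and forskolin 2 and controls 1 and 3 were in Cy3. Detection required that the average of a probe's 5 spots lie over 3 SD above the average of the 669 empty spots. Between 175 and 585 probes were detected in forskolin samples, and between 162 and 225 in controls. The 585 belong to forskolin 2, where 227 were detected when the limit came from the dimmer miRNA probes. A probe was tested where all samples of at least 1 group detected it, which held for 167 probes. The smooth muscle markers miR-143, miR-145 and miR-145* were detected in all 6 samples and summed to 11219 to 18410 units above the empty spots in forskolin samples and 5055 to 24701 in controls. The endothelial markers miR-126-3p and miR-126-5p summed to 6.47 to 58.2 in forskolin samples and 3.76 to 43.0 in controls. The 8 kidney tubule markers summed to 45.9 to 347 in forskolin samples and 16.3 to 337 in controls. Of these, miR-192 and miR-194 were detected in 3 of 3 forskolin samples and in 1 control, and were tested. The other tubule markers were detected only in forskolin 2. Samples of the same replicate number carried opposite dyes and shared 18 spots that stood over 1 log2 unit from the other spots of their probe, against 0 shared among the 12 other pairs of samples. Whether such a pair lay on 1 array is not stated in the labels, and the design text gives 1 replicate per array. Precision is limited by the number of arrays.

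Of the 8 members, 5 were detected in all 6 samples and were tested: miR-21, miR-31, miR-31*, miR-155 and miR-210. None of the 5 passed an adjusted p of 0.05 in limma, with a term for the dye, and none had an unadjusted p under 0.05. Over all tested probes 5.99% passed, 2.4% higher and 3.59% lower in forskolin, or 4 and 6 probes. An unadjusted limma p under 0.05 was found for 32 of the 167. With arrays scaled to the 75th percentile 7 probes passed as higher and 0 as lower, and with none normalized 5 and 0. With the replicate number as a block, 18% of tested probes passed and still none of the 5. That fit gave all probes the same SE, 0.30. Its p-values therefore follow the fold changes and do not measure the spread of each probe. By mean level in the controls, miR-21 was first of the 599 probes, miR-155 ranked 18, miR-31 ranked 30, miR-31* ranked 99 and miR-210 ranked 122. The untested members ranked 167 (miR-146a), 274 (miR-21*) and 322 (miR-146b). Ranks order intensities, and probes differ in how well they hybridise, so they do not order numbers of molecules.

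**Figure D1:**
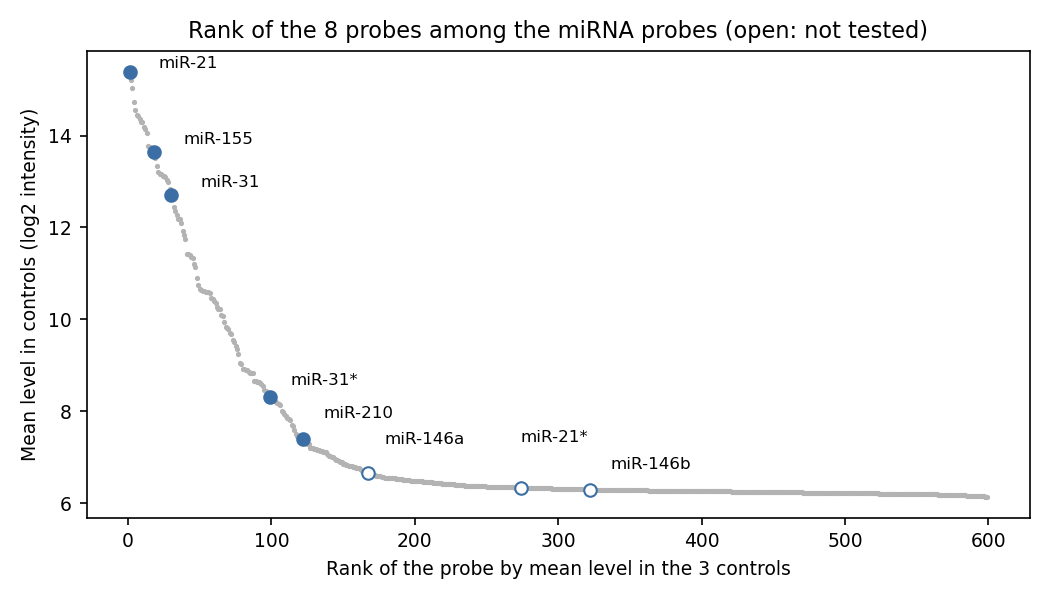
Mean level of each of the 599 probes in the 3 control samples (vertical axis, log2 intensity after quantile normalization) against its rank (horizontal axis). Blue points mark the 8 members, filled where tested, and grey points the other probes. miR-21, miR-155 and miR-31 stand on the steep bright end at ranks 1, 18 and 30, and the 3 untested members lie on the flat part near background.

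miR-21 was the brightest probe on the array. Its intensity above the empty spots was 50626, 50502 and 55444 in forskolin samples 1 to 3, against 45771, 30219 and 41115 in controls 1 to 3. The groups did not overlap on this scale, with forskolin samples higher. How many other probes were free of overlap before normalization was not counted. Without normalization the median log2 fold change of all tested probes was itself 0.48, beside 0.51 for miR-21. It ranked first in every sample except control 2, where it ranked 2, and after quantile normalization equal ranks carry equal values. The normalized log2 level was therefore 15.45 in all 3 forskolin samples, and 15.45, 15.25 and 15.45 in controls 1 to 3. The limma log2 fold change was 0.10 (standard error, SE, 0.20, 95% interval from -0.36 to 0.57) at an adjusted p of 0.831.

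A measured change of miR-21 is therefore set by the scaling of the samples. In the authors' deposited table, whose scaling is unknown, miR-21 read 43008, 41419 and 32630 in forskolin samples 1 to 3, against 53487, 42857 and 60383 in controls 1 to 3. In that table the groups overlapped, since forskolin 1 was above control 2, and each forskolin sample was below the control of its number. After quantile normalization of the same table the log2 fold change was 0.12. With no normalization the log2 fold change was 0.51 while the median of all tested probes was 0.48. With cyclic loess it was -0.43, at a limma adjusted p of 0.388. The direction was thus opposite between scalings, and no direction is given here for miR-21.

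miR-21*, the passenger strand, was near background. It passed the detection limit in forskolin 2, where 585 probes did, and in none of the controls. With a limit of 5 SD it was detected in 0 samples. Its intensity above the empty spots was 4.04, 31.5 and 7.52 in forskolin samples 1 to 3, against 9.76, 3.79 and 20.9 in controls 1 to 3. The ranges overlapped and the probe was not tested. The intensity of miR-21 over that of miR-21* was at least 3707-fold and 3752-fold in forskolin samples 1 and 3, and at least 1068-fold, 5442-fold and 958-fold in controls 1 to 3. These bounds set miR-21 against the detection limit of the sample. None is given for forskolin 2, where miR-21* was no brighter than many probes near background. A ratio between 2 probes compares their intensities and also holds their difference in hybridisation, so it is not a ratio of molecules.

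miR-155 was among the brightest probes of these cells. Its normalized log2 level was 13.80, 13.59 and 14.10 in forskolin samples 1 to 3, against 13.87, 13.87 and 13.19 in controls 1 to 3. The groups overlapped. The log2 fold change was 0.074 (SE 0.26, 95% interval from -0.53 to 0.68) at a limma adjusted p of 0.915. The difference was -0.065, -0.27 and 0.91 in pairs 1 to 3 of samples with the same replicate number, so 1 pair was higher and the other 2 lower.

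The miR-155 value rests on spots that did not all work. In replicate 2, spot 2 read 371 above the empty spots in forskolin and 914 in control, where the median spot read 18220 in forskolin and 8661 in control. In replicate 3, spot 5 read 623 in forskolin and 502 in control, where the median spot read 26514 in forskolin and 15235 in control. All spots of replicate 1 lay together, with a coefficient of variation of 1.91% in forskolin and 3.20% in control. The same spot was low in both samples of a number, at the same row and column of the array.

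With the median of the 5 spots in place of their mean, the normalized level of miR-155 was 13.99 ± 0.33 in forskolin and 13.96 ± 0.067 in control (SD, n = 3 each). The log2 fold change was then -0.038, at a limma adjusted p of 0.943. The pair differences became -0.12, -0.24 and 0.44. Without control 3, the lowest sample by the normalized level from the mean of spots, the log2 fold change was -0.069. The sign of the miR-155 estimate thus turned with how the spots were summarised, and its size stayed below its SE in each of these fits.

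**Figure D2:**
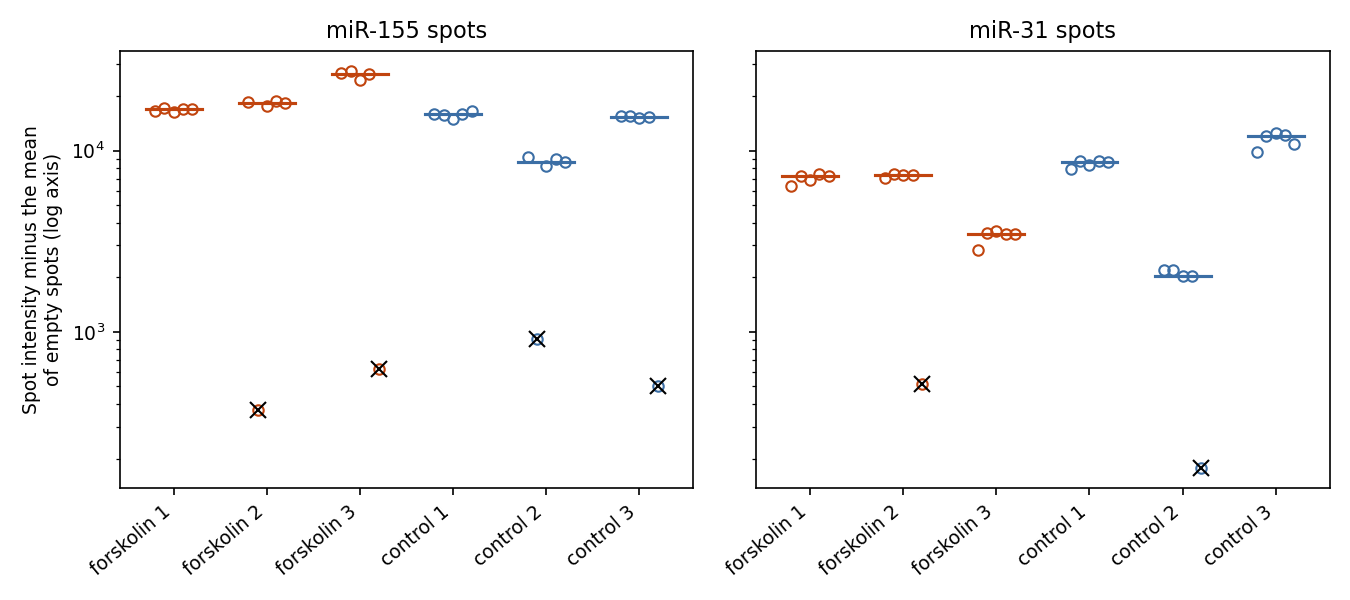
Intensity of each of the 5 spots of miR-155 (left) and miR-31 (right) minus the mean of the empty spots, on a log axis, for the 3 forskolin samples (red) and the 3 control samples (blue). Lines are medians and crosses mark spots over 1 log2 unit from the other spots. The crossed miR-155 spots lie in both samples of replicates 2 and 3, and the crossed miR-31 spots in both samples of replicate 2.

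miR-155 is known best from blood cells, so markers of those cells are given beside it. Of 7 blood cell markers, only miR-486, which muscle also makes, was detected in all 6 samples. miR-223, miR-150, miR-451, miR-144 and miR-142-5p were detected in no control and only in forskolin 2, and miR-142-3p in 1 forskolin sample and 1 control. The 7 summed to 29.8 to 286 units above the empty spots in forskolin samples and 36.5 to 212 in controls. miR-155 alone was at 14730 to 21197 in forskolin samples and 7189 to 15829 in controls. miR-486 was dim, at 19.6 to 81.0 in forskolin samples and 17.5 to 101 in controls. The other blood-cell markers were at or near background. Which cells miR-155 came from was not tested.

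miR-31 was bright and lower in the forskolin sample of 3 of 3 pairs, but did not pass the test. Its normalized log2 level was 12.53, 12.10 and 11.71 in forskolin samples 1 to 3, against 12.89, 12.32 and 12.89 in controls 1 to 3. The groups overlapped, since forskolin 1 was above control 2. The differences were -0.36, -0.22 and -1.18 in pairs 1 to 3. Over all tested probes 25.7% were lower in 3 of 3 pairs. The log2 fold change was -0.50 (SE 0.29, 95% interval from -1.19 to 0.20) at a limma adjusted p of 0.411.

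In replicate 2, spot 5 of miR-31 was low in both samples, at 518 above the empty spots in forskolin and 178 in control, beside median spots of 7314 in forskolin and 2029 in control. With the median of spots the pair differences were -0.33, -0.081 and -1.40, and the log2 fold change was -0.47. Pair 3 thus had the largest difference either way. Without both samples of replicate 3 the log2 fold change by the mean of spots was -0.29. Without forskolin 2, the 1 forskolin sample in Cy3, it was smaller still, at -0.20.

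miR-31*, the other strand of the same hairpin, was dimmer and also lower in the forskolin sample of 3 of 3 pairs. Its level was 7.86, 7.68 and 8.04 in forskolin samples 1 to 3, against 8.26, 8.01 and 8.65 in controls 1 to 3. The groups overlapped, since forskolin 3 was above control 2. The pair differences were -0.39, -0.33 and -0.61. The log2 fold change was -0.42 (SE 0.25, 95% interval from -1.02 to 0.19) at a limma adjusted p of 0.428. None of its spots stood apart. Without forskolin 2, the 1 forskolin sample in Cy3, the log2 fold change was -0.062.

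The strand ratio of miR-31 was taken per sample as the log2 level of miR-31 minus that of miR-31*, before normalization between samples. It was 5.34, 4.30 and 3.87 in forskolin samples 1 to 3, against 4.62, 4.32 and 3.71 in controls 1 to 3. On this scale, which holds the offset of 50, miR-31 exceeded miR-31* by 14.7-fold to 40.4-fold in forskolin samples and by 13.1-fold to 24.6-fold in controls. With the empty spots subtracted and no offset it was 19.2-fold to 59.0-fold in forskolin samples and 14.6-fold to 50.5-fold in controls. Both use the mean of spots, which includes the low miR-31 spot of replicate 2. The means of the log2 ratio with the offset were 4.50 ± 0.75 in forskolin and 4.22 ± 0.47 in control (SD, n = 3 each), a difference of 0.29. An exact two-sided permutation test gave p = 0.7, where 3 samples against 3 cannot go below 0.1. With the empty spots subtracted and no offset, the mean ratio was 4.94 in forskolin and 4.83 in control, a difference of 0.11 (exact permutation p = 0.9). Without forskolin 1 the difference was -0.13, so its sign rested on 1 sample. No difference of the strand ratio was detectable with these samples.

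miR-210 was dim but detected in all 6 samples, and it was lower in the forskolin sample of 3 of 3 pairs by similar amounts. Its normalized log2 level was 7.19, 6.99 and 6.66 in forskolin samples 1 to 3, against 7.68, 7.45 and 7.04 in controls 1 to 3. The groups overlapped, since forskolin 1 was above control 3. The pair differences were -0.49, -0.46 and -0.38. The log2 fold change was -0.45 (SE 0.27, 95% interval from -1.1 to 0.20) at a limma adjusted p of 0.428.

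Within a dye, miR-210 was also lower in forskolin. In Cy3 forskolin 2 was 0.37 log2 units below the mean of controls 1 and 3, at 6.99 and 7.36, and in Cy5 the mean of forskolin 1 and 3 was 0.53 below control 2, at 6.92 and 7.45. With the replicate number as a block the limma adjusted p was 0.424, or 0.0885 without the dye term. In that fit 3 of the 5 members had an unadjusted limma p under 0.05: miR-210 (0.0207), miR-31* (0.0256) and miR-31 (0.0495). So did 49 of all 167 tested probes, and miR-31 and miR-31* come from 1 hairpin. The direction of miR-210 was the same in all 23 alternative fits, from -0.91 to -0.12. None of the fits passed the threshold.

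The counts of lower pairs are to be read against the background. Of the 5 tested members, 3 were lower in 3 of 3 pairs and none was higher in 3 of 3. Over all tested probes the same 25.7% were lower and 25.1% higher. Of the 5, none had groups free of overlap in the normalized levels, beside 23.4% of tested probes (13.2% lower and 10.2% higher). miR-21 could enter none of these counts, since its top rank set its differences in pairs 1 and 3 to exactly 0. The 5 log2 fold changes had a median of -0.42, beside -0.014 over all tested probes. That median is the value of miR-31*. miR-31 and miR-31* come from 1 hairpin, so the 5 members are not separate loci.

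**Figure D3:**
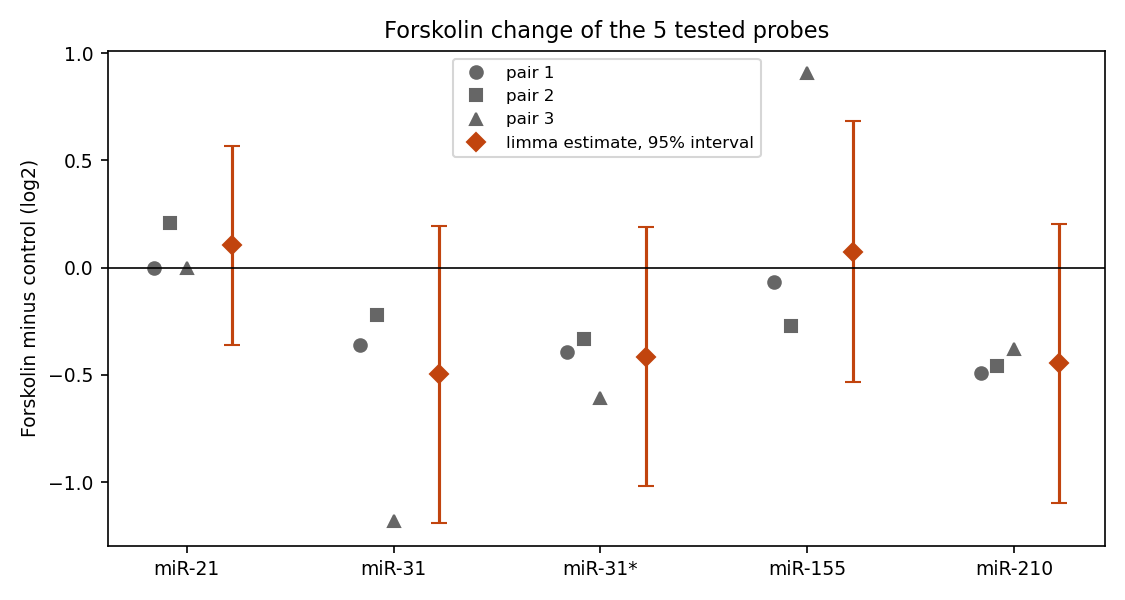
Forskolin minus control on the log2 scale for the 5 tested members (horizontal axis). Grey symbols are the 3 pairs that share a replicate number, and red diamonds the limma estimates with their 95% intervals. miR-31, miR-31* and miR-210 have all 3 pairs below 0, and all 5 intervals include 0.

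Differences within a dye had the same sign in Cy3 and Cy5 for miR-31 and miR-31*. For miR-31, forskolin was 0.79 below control in Cy3, at 12.10 and 12.89, and 0.20 below in Cy5, at 12.12 and 12.32. For miR-31* forskolin was 0.77 below control in Cy3, at 7.68 and 8.45, and 0.062 below in Cy5, at 7.95 and 8.01. For miR-155 forskolin was 0.066 above control in Cy3, at 13.59 and 13.53, and 0.083 above in Cy5, at 13.95 and 13.87. With the median of spots the miR-155 differences had opposite signs, -0.12 in Cy3 and 0.045 in Cy5. Each dye held 1 sample of 1 group and 2 of the other, so these differences have no test of their own.

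miR-146a and miR-146b, the NF-κB feedback pair, were at the edge of detection. miR-146a was detected in 2 of 3 forskolin samples and 2 of 3 controls. Its intensity above the empty spots was 15.6, 45.4 and 12.3 in forskolin samples 1 to 3, against 57.6, 3.46 and 81.9 in controls 1 to 3. Its normalized log2 level was 6.53 ± 0.11 in forskolin and 6.65 ± 0.25 in control (SD, n = 3 each), and the ranges overlapped. With the limit taken from the dimmer miRNA probes it was detected in all 6 samples. miR-146b was detected in 1 sample of each group, and its level was 6.34 ± 0.066 in forskolin and 6.30 ± 0.11 in control (SD, n = 3 each). Neither was tested, and a difference was not detectable at this signal. Of 4 other strands of the member hairpins looked up by name, only miR-146b* had a probe on the array, and it was detected only in forskolin 2.

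**Figure D4:**
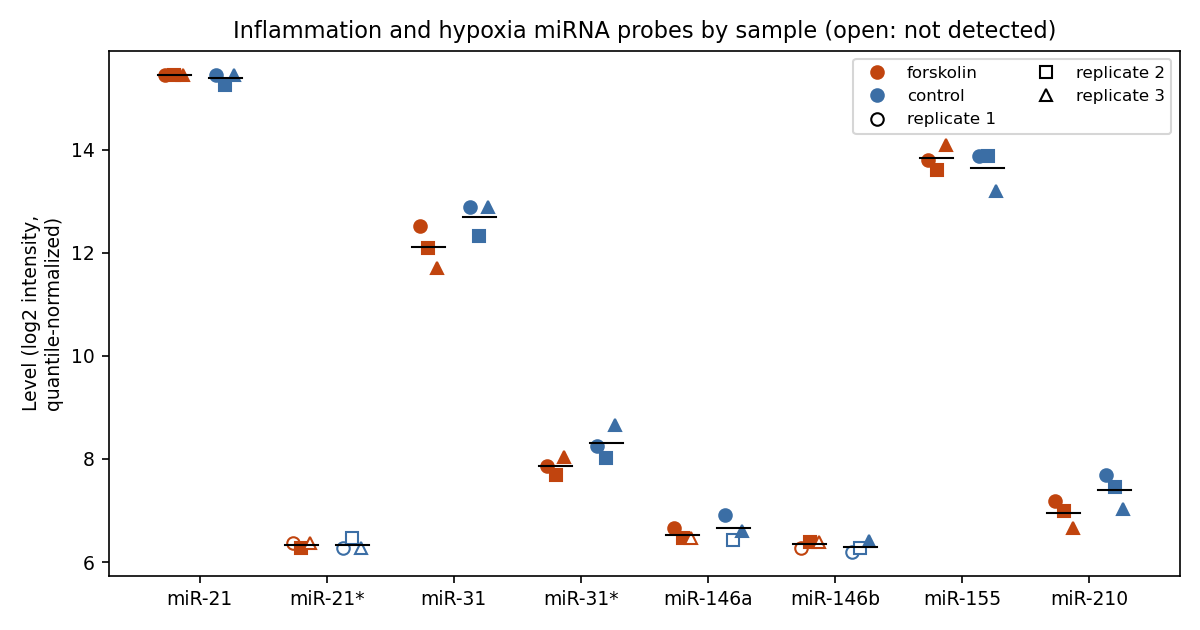
Quantile-normalized log2 intensity of the 8 members in the 3 forskolin samples (red) and the 3 control samples (blue). The symbol gives the replicate number, open symbols mark samples in which the probe was not detected, and lines are group means. The forskolin and control points of every member overlap or touch, and miR-21*, miR-146a and miR-146b lie between 6.20 and 6.92.

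Other miRNAs linked to inflammation gave no call. Of 14 on the list 7 were tested, 5 with a positive and 2 with a negative log2 fold change, and none passed over all tested probes. The median was 0.023. miR-132, which responds to CREB and represses acetylcholinesterase, had 0.81 (SE 0.24) at a limma adjusted p of 0.102. Under the replicate block, where all probes share 1 SE, its limma adjusted p was 0.0427. miR-125b-5p had -0.38, let-7i, known for targeting Tlr4, had -0.20 and miR-23b had 0.15, none of them past the threshold in either fit.

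Of the other miRNAs reported under low oxygen, 1 passed. Of 21 on the list 20 were tested, 9 with a positive and 11 with a negative log2 fold change, and 1 fell, beside 5.99% of all tested probes. That was miR-20b, a relative of miR-17, with -1.67 (SE 0.35) at a limma adjusted p of 0.0425. It was lower in all 23 alternative fits and lost its call in 11. These were the fits without forskolin 1, forskolin 2, control 2, control 3 or both samples of replicate 1, with cyclic loess, 75th percentile scaling or no normalization, with the empty spots subtracted, with the median of spots and with no filter. Its log2 fold change ran from -2.38 without control 2 to -0.88 with no normalization. Its limma adjusted p reached 0.620 in the fit with no normalization, where the 5 members shared 1 SE. The median was -0.019. With the replicate block 4 rose and 2 fell of the 20, beside 18% of all tested probes. They included miR-181b (1.02, adjusted p 0.00716 in that limma fit), miR-30b (1.11, adjusted p 0.00253) and miR-106a (-1.48, adjusted p 3.16e-05). All probes share 1 SE in that fit, so these p-values do not measure the spread of each probe. miR-125b-5p and miR-23b are on both lists.

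For each member detected in all 6 samples, the 2 closest other tested probes were taken by the root-mean-square distance of their centred log2 levels over the 6 samples. miR-31 was closest to miR-29a (0.14) and miR-145 (0.19), beside a median distance of 0.50 over 162 probes. miR-31* was closest to miR-16 (0.15) and miR-130a (0.17). miR-210 was closest to miR-532-5p (0.11) and miR-674 (0.12), and miR-155 to miR-342-5p (0.10) and miR-1198 (0.15). miR-21 was closest to miR-26a (0.061) and miR-181c (0.091), probes that also varied little. None of the 10 had a limma adjusted p under 0.05.

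The scaling between samples moved the members together with all other probes. The median of all tested probes was -0.014 with quantile normalization, -0.055 with cyclic loess, 0.31 with arrays scaled to the 75th percentile, -0.24 with the median of detected probes and 0.48 with no normalization. Relative to that median, miR-210 was at -0.43, -0.38, -0.60, -0.60 and -0.60 in the same order. miR-31* was at -0.40, -0.38, -0.32, -0.32 and -0.32, and miR-31 at -0.48, -0.39, -0.11, -0.11 and -0.11. Scaling to the 75th percentile, the median of detected probes and no normalization differ only by a constant per sample, which shifts all probes alike. Their relative values are therefore equal by construction and are not separate support. miR-210, miR-31* and miR-31 were below the median probe there, and also with quantile normalization and with cyclic loess. miR-31 was above 0 without that subtraction when scaled to the 75th percentile (0.20) and when not normalized (0.37), and miR-31* when not normalized (0.16).

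**Figure D5:**
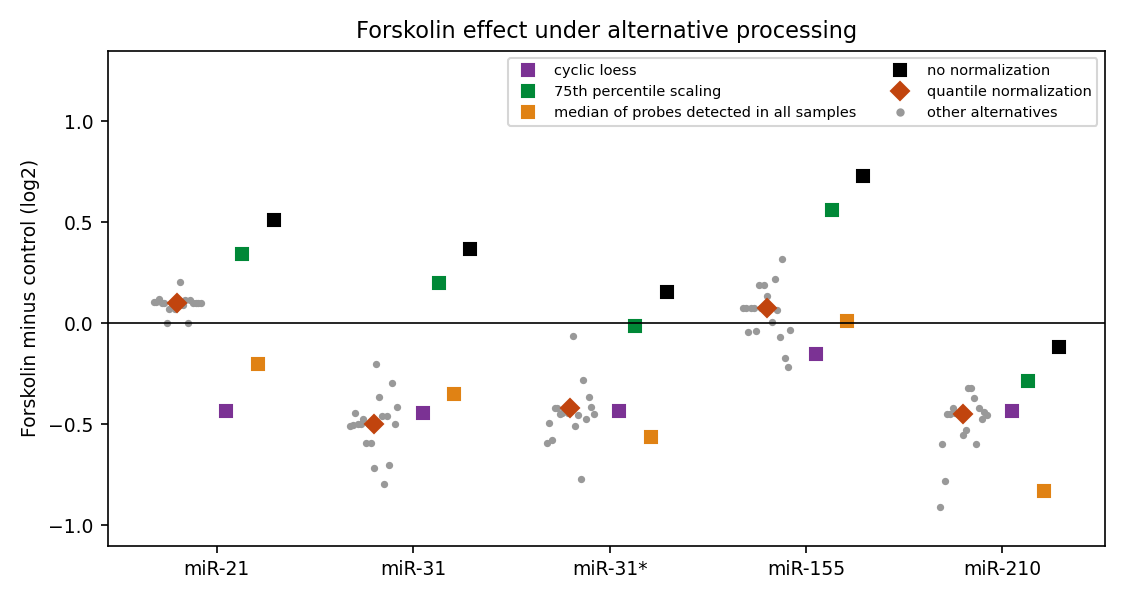
Forskolin minus control (log2) of the 5 tested members under the quantile normalization of the report (red diamonds), 4 other scalings (squares) and the other alternatives (grey points). miR-210 is below 0 throughout, miR-31 and miR-31* are above 0 only under the scalings named in the text, and miR-21 and miR-155 lie on both sides of 0.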

How the data were processed

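RNA under a size limit was tailed, tagged and stained with Cy3 or Cy5 by a service provider, per the labels' protocols. Each deposited scanner file gives the intensity of every spot as a mean density, per the file headers, and empty spots show that background remains in it. The deposited series table holds 1 whole-number intensity per miRNA and sample, with column medians of 8 to 11. How it was background-corrected and normalized is not given in the sources used here. It served as an alternative.

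Background was corrected with normexp (offset 50) and the 5 spots of a probe averaged. The log2 values were quantile-normalized over 599 probes and fitted in limma 3.58.1 (R 4.3.3) with terms for forskolin and dye over 167 probes, with Benjamini-Hochberg adjustment. The offset makes fold changes of dim probes too small. P-values are two-sided. The steps were run on simulated arrays with independent noise and without dye, pair or failed-spot effects. That run does not test the steps under such effects. Members and lists were chosen with earlier results of these data known. The rule for names takes all members, the 4 tested probes of each list with the smallest p, any that passes, and the 2 closest probes.

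Deviations from the group means correlated within pairs of the same replicate number, at 0.397, 0.473 and 0.359. The numbers were therefore used for the pair differences and for the fits with a block. The fit of the report has no term for the pair and treats the samples as independent. The pairing comes from these data. A fit with both block and dye has 1 degree of freedom left, and limma then gave all probes the same SE. Each group has 3 samples.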

Additional observations from a re-analysis of the deposited data

How the results depend on the processing

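In 23 alternative fits no member passed, and none did in the fit of the report, where 0 members also had an unadjusted limma p under 0.05. That number was 3 with the replicate block and no dye term, and 1 each with the median of detected probes and without forskolin 1. Over all 167 tested probes it was 49, 26 and 39 in these fits, in the same order, and 32 in the fit of the report. The direction was kept by miR-210 in 23 of 23, by miR-31* in 22 and by miR-31 in 21, with reversals as given beside the results: 0.20 (75th percentile) and 0.37 (no normalization) for miR-31, and 0.16 (no normalization) for miR-31*. miR-21 was at -0.43 with cyclic loess and -0.20 with the median of detected probes. miR-155 was at -0.15 with cyclic loess, -0.040 with the series table, -0.038 with the median of spots, and -0.069 (without control 3) to 0.22 (without control 1) with 1 sample left out. It was at 0.56 when scaled to the 75th percentile and 0.73 when not normalized, and at -0.17 without both samples of replicate 3. With 2 alternatives chosen after seeing the data, the mean of log2 spots and the mean without low spots, it was -0.21 and -0.035. The strand ratio difference of miR-31 ran from -0.13 to 0.60 with 1 sample left out.

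The count of called probes, 10, was 5 with no normalization, 4 with the empty spots subtracted, 1 with no filter, 5 with the median of spots and 18 with no dye term. It was 30 with the replicate block and dye term, 24 with the block alone, 0 to 12 without 1 sample, 0 without pair 1 and 24 without pair 3. The 5 members shared 1 SE with no normalization, with the block and dye term, and without pair 3. The counts of 0 came without forskolin 2, control 2 or replicate 1, with 22, 20 and 17 probes at an unadjusted limma p under 0.05. The block changed no call of a member. The median of the inflammation list was -0.10 with cyclic loess, 0.61 when scaled to the 75th percentile and 0.78 when not normalized, and 0.020 to 0.10 with 1 sample left out. That of the hypoxia list was 0.41 when scaled to the 75th percentile and 0.58 when not normalized. The fit without both samples of replicate 2 was not run, since dye and treatment then coincide. Signal over background limits miR-21*, miR-146a and miR-146b.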
